A study of Mus musculus with 6 samples.

Results

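The 34 genes described here are interferon-stimulated genes other than the OAS family: genes whose transcription follows interferon signalling, taken by symbol from a list of 34. All 34 were among the 55487 genes of the deposited tables, and all 34 had enough reads to be tested. They were measured by RNA sequencing in primitive macrophages, the earliest macrophages of the embryo, grown in culture from mouse embryonic stem cells. The 2 groups were wild-type cells and cells from Ts1Cje mice, with 3 libraries each, all collected after 12 days of induction with M-CSF, SCF, IL-3, VEGF, FGF2, activin A and BMP-4. No interferon or other immune stimulus is named for either group, and strain and sex are not given in the labels. Ts1Cje mice, a model of Down syndrome, carry an extra copy of a distal segment of chromosome 16, and as background are also known to lack a small distal part of chromosome 12. The study asked why microglia, which descend from primitive macrophages, are fewer in Ts1Cje embryos. Libraries are numbered by their lot. The labels do not say whether the lots were separate stem cell lines, differentiations or cultures, so p-values cover no more than the spread among these samples, and that spread may be technical.

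Type I interferons bind the receptor chains Ifnar1 and Ifnar2, and interferon gamma binds Ifngr1 and Ifngr2. At the type I receptor the kinases Jak1 and Tyk2 then activate STAT proteins. A complex that includes Stat2 and Irf9 binds a short element called the ISRE in the promoters of interferon-stimulated genes. The products detect viral nucleic acid, block viral entry and replication, and dampen or sustain the signal itself. Ifnar1, Ifnar2, Ifngr2 and Il10rb (a chain shared by the interleukin-10 and lambda interferon receptors) lie in the segment that Ts1Cje cells carry in extra copy, and Ifngr1 does not. Mx1 and Mx2 also lie in that segment, taken here from Sod1 to Zbtb21.

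Promoter stretches are shown for Isg15 and for those genes with values in every library that held the ISRE core upstream of the gene, to let the reader see the element they share. Those of Ifitm3 and Gbp2, whose cores lie within the annotated gene, are not printed. Of the 34 genes, 25 were in RefSeq's promoter table (build GRCm38.p6, 250 bases before to 50 after each start). Dhx58, Ifi27, Mx1, Mx2, Parp14, Parp9, Rtp4, Usp18 and Zbp1 were not. The ISRE core, searched on both strands as GAAA, 2 bases of any kind and GAAA (TTTC and TTTC on the other strand), was found in 15 of the 25 (60%) and in 1079 of all 27025 genes in that table (3.99%). The GAS core, TTC, 3 bases of any kind and GAA, at which STAT dimers bind, was found in 7 of the 25 (28%) and in 2582 of all genes (9.55%). Both motifs were searched as letters only, and 1 stretch can hold several overlapping matches. Each stretch below reads 5′ to 3′ on the gene's own strand, lies upstream of the gene in both RefSeq and the count table's annotation, and has the ISRE cores in capitals. They are Ifit1 at chr19:34640770-34640828 (+), Ifit3 at chr19:34583358-34583431 (+), Rsad2 at chr12:26456548-26456587 (-), Bst2 at chr8:71537572-71537617 (-), Cxcl10 at chr5:92349078-92349117 (-) and Isg15 at chr4:156200860-156200911 (-).
Ifit1: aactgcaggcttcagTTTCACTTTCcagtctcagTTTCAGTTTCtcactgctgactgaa
Ifit3: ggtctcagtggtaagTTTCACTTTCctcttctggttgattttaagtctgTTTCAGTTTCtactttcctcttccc
Rsad2: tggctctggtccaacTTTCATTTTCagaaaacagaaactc
Bst2: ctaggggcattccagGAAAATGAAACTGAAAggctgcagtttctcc
Cxcl10: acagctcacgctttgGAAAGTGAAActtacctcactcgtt
Isg15: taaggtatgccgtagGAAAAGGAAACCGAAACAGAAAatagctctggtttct

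The arrangement of the element differed among these genes. In Ifit1 and Ifit3 it occurred as 2 separate cores, which began 104 and 85 bases before the start of Ifit1 and 156 and 122 bases before that of Ifit3. In Bst2 and Isg15 overlapping cores ran together into 1 uninterrupted stretch of GAAA repeats. Rsad2 and Cxcl10 each held 1 core in the window, 120 and 213 bases before the start. Over all members with the core, 23 sites were found and 7 genes had more than 1. No core was found in the windows of Cmpk2, Dtx3l, Ifi35, Ifi44, Ifit2, Irf7, Irf9, Samhd1, Trim25 and Xaf1. Isg15 was chosen for display after its values were seen.

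Library totals were 25484294 to 32658148 counts, with 17586 to 18935 genes detected per library. Ts1Cje replicate 1 was the deepest. On the first principal component of all tested genes (37.8% of the variance) wild-type replicate 1 lay at -88.2 and the other libraries between -18.7 and 38.7. All 12 macrophage markers were detected, with summed levels of 8830 to 20200 CPM in wild-type and 9960 to 18800 CPM in Ts1Cje libraries. CPM are counts scaled to a common library size by library total and TMM factor. In bulk RNA, fewer cells of a type and less RNA per cell cannot be told apart.

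None of the 34 genes passed the genotype test (edgeR's quasi-likelihood test, Benjamini-Hochberg adjustment over 13821 genes, threshold 0.05). Their adjusted p ran from 0.792 to 0.996. In simulated data 0 of 83 genes changed 1.5-fold passed this test, so failing it does not show equal levels. Among all genes tested, 0.00724% passed as higher in Ts1Cje and 0% as lower. The log2 fold change, written throughout as Ts1Cje relative to wild-type, was positive for 15 members and negative for 19, and 49.2% of all genes were positive. The median over members was -0.03, against -0.01 over all genes and 0.61 over the 57 tested genes of the segment in extra copy. Values ran from -0.59 for Ifi27 to 0.50 for Bst2. At an unadjusted p under 0.05 stood 1 member, Bst2, which was higher, against a background of 2.99% of all genes higher and 2.8% lower. Bst2 was also the only member whose groups did not overlap. Groups without overlap, with Ts1Cje above, were found in 6.38% of all genes, and with Ts1Cje below in 5.72%.

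**Figure D1:**
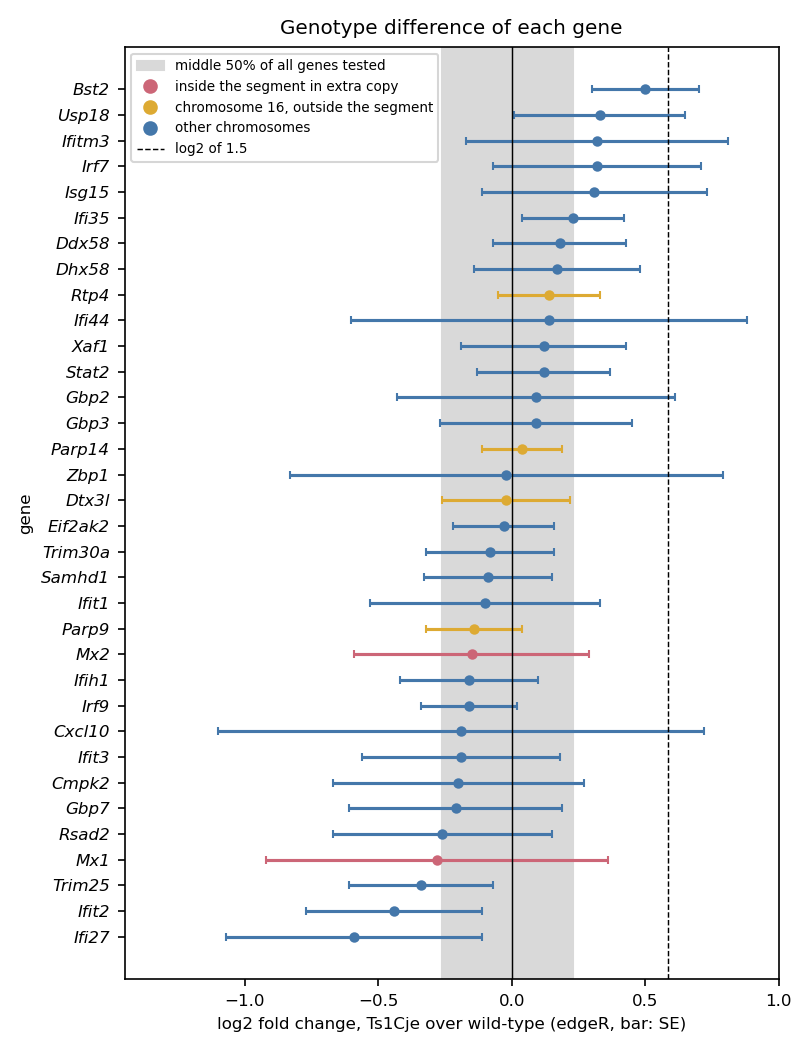
Log2 fold change of each of the 34 genes, Ts1Cje relative to wild-type, by edgeR, with bars of 1 standard error. The grey band holds the middle 50% of all genes tested, the dashed line marks a 1.5-fold difference, and Bst2 (0.50) and Ifi27 (-0.59) lie at the ends.

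The members differed more between libraries of 1 genotype than most genes did. The standard deviation of log2 CPM within a genotype had a median of 0.49 over members, 0.34 over all genes, and 0.28 over the 10749 genes in the members' range of levels. It exceeded that last value in 28 of 34 members and ran from 0.16 for Parp14 to 1.48 for Cxcl10. The wild-type libraries spread more widely than the Ts1Cje libraries in 29 of 34 members (85.3%) and in 64.4% of all genes. The median standard deviation of members was 0.65 in wild-type and 0.33 in Ts1Cje.

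The same libraries were high or low across most members. Wild-type replicate 2 was the highest wild-type library for 29 of 34 members (27.2% of all genes), and wild-type replicate 3 the lowest for 27 of 34 (37.2% of all genes). Among Ts1Cje libraries, replicate 1 was the highest for 29 of 34 (34.7% of all genes). Over all 6 libraries, wild-type replicate 2 was highest for 18 members (16.2% of all genes) and wild-type replicate 3 lowest for 20 (16.1% of all genes). The median member stood at -0.08, 0.45 and -0.50 in wild-type replicates 1, 2 and 3 and at 0.35, -0.01 and -0.18 in Ts1Cje replicates 1, 2 and 3, as log2 CPM minus the gene's mean over the 6 libraries. The summed level of all members was 3610, 5520 and 2740 CPM in the wild-type libraries and 4350, 3640 and 3380 CPM in the Ts1Cje libraries. These counts describe genes that share libraries, so they are not independent of each other.

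**Figure D2:**
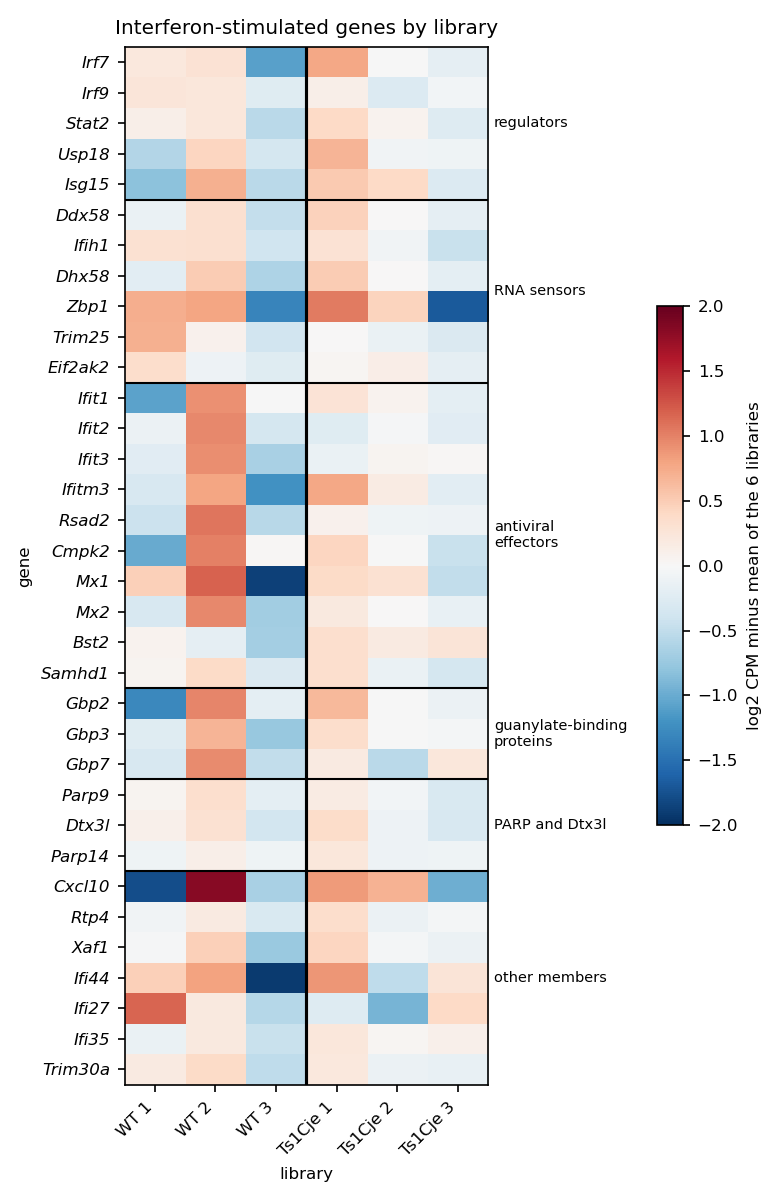
Heat map of log2 CPM minus the gene's mean over the 6 libraries, with 1 row per gene grouped by role and 1 column per library. Wild-type replicate 2 is above the mean across most rows, wild-type replicate 3 is below it, and Cxcl10, Mx1, Ifi44 and Zbp1 are among the rows with the widest contrasts.

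The regulators of the response, Irf7, Irf9, Stat2, Usp18 and Isg15, had a median log2 fold change of 0.31, with 4 positive and 1 negative. Usp18 removes Isg15 from proteins and holds back signalling at Ifnar2. Its levels were 70.2, 142 and 83.0 CPM in wild-type replicates 1 to 3 and 169.6, 101 and 99.2 CPM in Ts1Cje replicates 1 to 3. The range of the Ts1Cje libraries overlapped that of wild-type because wild-type replicate 2 exceeded 2 Ts1Cje libraries. The log2 fold change was 0.33 ± 0.32 (SE; edgeR adjusted p = 0.851).

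Isg15, a small protein joined to others much as ubiquitin is, had 16.3, 47.3 and 19.9 CPM in wild-type and 41.7, 37.98 and 23.8 CPM in Ts1Cje libraries. The highest library for Isg15 was wild-type replicate 2, and the other 2 wild-type libraries lay below every Ts1Cje library. Irf7, which drives type I interferon genes, had 145, 153.7 and 59.1 CPM in wild-type and 213, 124 and 110 CPM in Ts1Cje libraries. Wild-type replicate 3 was the lowest library for Irf7, and the groups overlapped. The log2 fold changes were 0.31 ± 0.42 for Isg15 and 0.32 ± 0.39 for Irf7 (SE; edgeR adjusted p = 0.894 and 0.882). Both genes fell outside the naming rule and were chosen after their values were seen. Stat2 (0.12 ± 0.25) and Irf9 (-0.16 ± 0.18), parts of the ISRE-binding complex, had smaller values. Irf7 overlaps Phrf1 by 45 bases on the opposite strand and Irf9 overlaps Rnf31 by 123 bases on the same strand, and no source used here says how shared reads were assigned.

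The sensors of viral RNA and of related nucleic acid, Ddx58 (RIG-I), Ifih1 (MDA5), Dhx58 (LGP2), Zbp1, Trim25 and Eif2ak2 (PKR), had a median log2 fold change of -0.02, with 2 positive and 4 negative. Trim25, a ubiquitin ligase that acts on the RIG-I pathway, had 377, 243 and 175 CPM in wild-type and 231, 209.8 and 187.5 CPM in Ts1Cje libraries. Wild-type replicate 1 stood above all other libraries, and the Ts1Cje range lay inside the wild-type range. Its log2 fold change was -0.34 ± 0.27 (SE; edgeR adjusted p = 0.831), and -0.01 ± 0.19 without wild-type replicate 1. Eif2ak2, a kinase that halts translation, and Trim25 were 2 of the 5 members for which replicate 1 was the highest of the 3 wild-type libraries. In the other 4 sensors the log2 fold change ran from -0.16 for Ifih1 to 0.18 for Ddx58. Zbp1, which triggers necroptosis, was scarcely expressed, at a mean of 1.93 TPM over the 6 libraries. TPM is abundance per length, the scale used here whenever genes are compared with each other.

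The 10 antiviral effectors had a median standard deviation within a genotype of 0.63 in log2 CPM, against 0.49 over all members, and 5 of the 6 highest levels in TPM. Their median log2 fold change was -0.17, with 2 positive and 8 negative. Their median log2 CPM relative to the mean was -0.27, 0.94 and -0.60 in the wild-type libraries and 0.31, 0.03 and -0.20 in the Ts1Cje libraries. The median thus differed more among wild-type libraries than among Ts1Cje libraries.

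Bst2 (tetherin; ENSMUSG00000046718), which holds budding virions at the cell surface, lies at chr8:71534255-71537456 on the minus strand in mm10. It had the highest level of all members, at 916, 799 and 570.3 TPM in wild-type and 1177, 1053 and 997 TPM in Ts1Cje libraries. On the CPM scale it had 283, 240.1 and 169 in wild-type against 343, 308 and 325 in Ts1Cje libraries. The lowest Ts1Cje library exceeded the highest wild-type library, and wild-type replicate 3 was the lowest of all. The log2 fold change was 0.50 ± 0.20 (SE), with a 95% interval of 0.03 to 0.96, an unadjusted p of 0.0399 and an adjusted p of 0.792 by edgeR. It stayed between 0.32 and 0.66 under every alternative run for Bst2. Bst2 departed from the other effectors in its libraries too, since wild-type replicate 1, not 2, was its highest wild-type library.

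The Ifit genes encode proteins that bind viral RNA lacking the host's cap methylation or block its translation, and the 3 members lie together on chromosome 19. Ifit2 had 416, 874 and 354 CPM in wild-type and 382, 445 and 384 CPM in Ts1Cje libraries. Ifit3 had 217, 487 and 163 CPM in wild-type and 234, 264 and 260.1 CPM in Ts1Cje libraries. Ifit1 had 58.2, 231 and 121 CPM in wild-type and 148, 129 and 107 CPM in Ts1Cje libraries. In all 3 genes wild-type replicate 2 was the highest of the 6 libraries and the Ts1Cje libraries lay within the wild-type range. Without wild-type replicate 2 the log2 fold change of Ifit2 went from -0.44 ± 0.33 to 0.06 and that of Ifit3 from -0.19 ± 0.37 to 0.40. That of Ifit1 was -0.10 ± 0.43 with all libraries, 0.50 without wild-type replicate 2 and 0.11 by limma-voom. The edgeR adjusted p with all libraries was 0.827, 0.928 and 0.972. Of the 50-base stretches of Ifit3, 51.2% also occur in Ifit3b, so its level is uncertain by an unknown share of reads.

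Rsad2 (viperin) makes a nucleotide that ends viral RNA chains, and Cmpk2, its neighbour on chromosome 12, is a kinase that supplies nucleotides. Rsad2 had 248, 704 and 229 CPM in wild-type and 354, 317 and 313.5 CPM in Ts1Cje libraries. Cmpk2 had 67.1, 272 and 137 CPM in wild-type and 182, 134 and 99.5 CPM in Ts1Cje libraries. Wild-type replicate 2 was the highest of the 6 libraries for both, and the other wild-type libraries of Rsad2 lay below all 3 Ts1Cje libraries. The genotype difference of Rsad2 was -0.26 ± 0.41 on the log2 scale (SE; edgeR adjusted p = 0.911). It was 0.45 ± 0.16 without wild-type replicate 2 (edgeR adjusted p = 0.975). The library left out was the gene's own highest, so the shift and the smaller error follow from that choice. That of Cmpk2 was -0.20 ± 0.47 (edgeR adjusted p = 0.942), and 0.43 without the same library.

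Ifitm3, a membrane protein that blocks the fusion of incoming viruses, had 42.6, 92.5 and 22.9 CPM in wild-type and 91.5, 59.95 and 45.9 CPM in Ts1Cje libraries. Wild-type replicate 2 and Ts1Cje replicate 1 were nearly equal at the top, and the remaining wild-type libraries were below the Ts1Cje range. Its log2 fold change was 0.32 ± 0.49 (SE; edgeR adjusted p = 0.908). It was 1.0 ± 0.38 without wild-type replicate 2 (edgeR adjusted p = 0.975) and -0.04 without wild-type replicate 3. These were the gene's highest and lowest libraries, so the shifts follow from that choice. Samhd1, which depletes the nucleotides that viruses need for DNA synthesis, had a log2 fold change of -0.09 ± 0.24.

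Mx1 and Mx2, GTPases that trap viral components, are the 2 members inside the segment that Ts1Cje cells carry in extra copy. Mx1 (ENSMUSG00000000386) lies at chr16:97447035-97462907 on the minus strand and Mx2 (ENSMUSG00000023341) at chr16:97535308-97560900 on the plus strand, in mm10. Mx1 had 40.1, 65.1 and 7.82 CPM in wild-type and 37.4, 35.3 and 20.4 CPM in Ts1Cje libraries. Mx2 had 5.95, 14.5 and 4.55 CPM in wild-type and 8.46, 7.45 and 6.72 CPM in Ts1Cje libraries. In both genes the 3 Ts1Cje libraries lay inside the wild-type range, whose top was replicate 2 and whose bottom was replicate 3. For Mx1 the highest wild-type library was 8.33 times the lowest.

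The log2 fold change was -0.28 ± 0.64 for Mx1, with a 95% interval of -1.76 to 1.21, and -0.15 ± 0.44 for Mx2, with an interval of -1.17 to 0.88 (SE; edgeR adjusted p = 0.940 and 0.956). Both intervals hold 0 and also 0.61, the median of the segment's tested genes, so a difference of that size was not separable from none in these 2 genes. The sign was positive without wild-type replicate 2 (0.37 for Mx1, 0.51 for Mx2) and by limma-voom (0.14 and 0.03). The Mx genes thus had wider intervals than the receptor chains of the same segment.

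**Figure D3:**
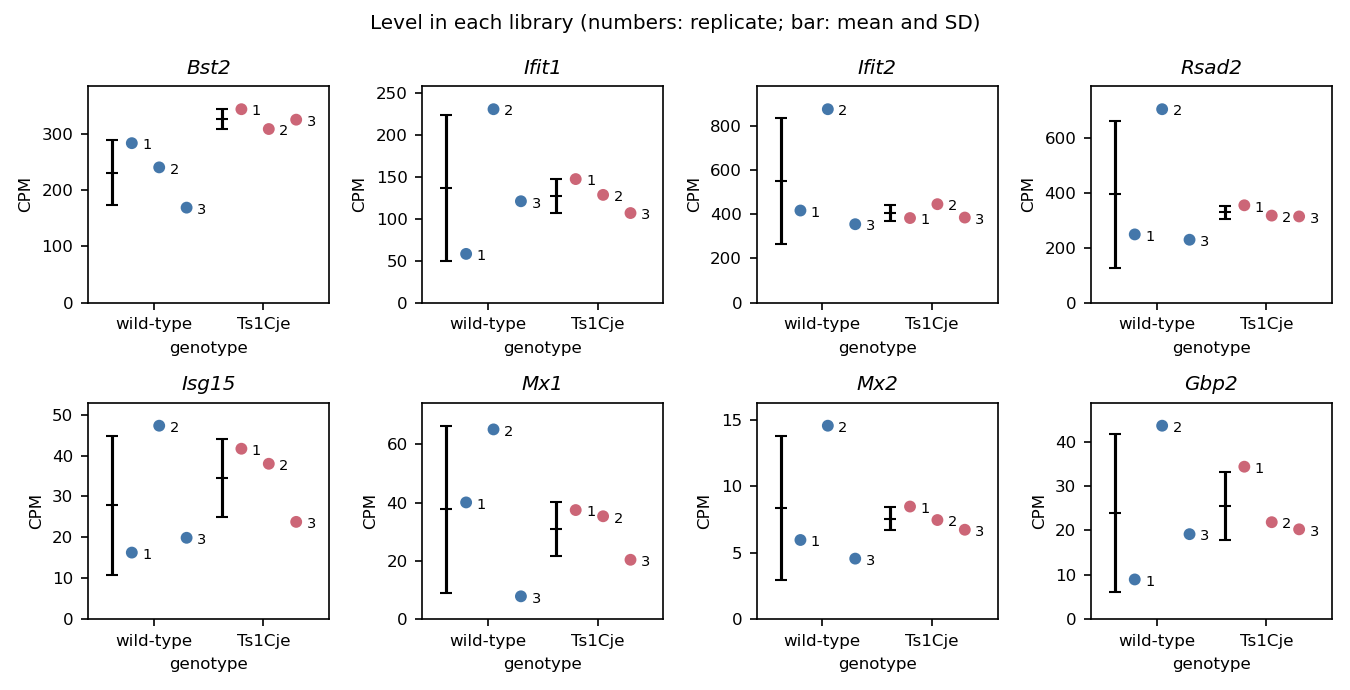
CPM in each of the 6 libraries for 8 genes, with points numbered by replicate and bars for the mean and SD of the 3 libraries of a genotype. In Ifit1, Ifit2, Rsad2, Isg15, Mx1, Mx2 and Gbp2 the wild-type libraries enclose the Ts1Cje libraries, and in Bst2 the groups do not overlap.

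The guanylate-binding proteins, GTPases that attack the vacuoles of intracellular pathogens, are induced mainly by interferon gamma. The 3 members, Gbp2, Gbp3 and Gbp7, lie on chromosome 3 and had log2 fold changes of 0.09, 0.09 and -0.21. Gbp2 had 8.94, 43.6 and 19.2 CPM in wild-type and 34.4, 21.9 and 20.3 CPM in Ts1Cje libraries. Wild-type replicate 2 was 4.88 times wild-type replicate 1, and the Ts1Cje libraries lay between them. With all libraries the log2 fold change of Gbp2 was 0.09 ± 0.52 (SE; edgeR adjusted p = 0.977), 0.85 without wild-type replicate 2 and -0.31 without wild-type replicate 1. Wild-type replicate 2 was the highest of the 3 wild-type libraries for Gbp3 and Gbp7 as well. Of the 50-base stretches of Gbp7, 12.7% occur in other genes.

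On chromosome 16 outside the segment lie 4 members: Parp9 at chr16:35938470-35972605 (+), Dtx3l at chr16:35926511-35939151 (-), Parp14 at chr16:35832874-35871544 (-) and Rtp4 at chr16:23520291-23614222 (+), all in mm10. They share the chromosome but not the extra copy, and their median log2 fold change was 0.01. Parp9 and the ubiquitin ligase Dtx3l form a complex that modifies histones and proteins. Parp9 had 107, 129 and 89.9 CPM in wild-type and 114.5, 98.7 and 83.4 CPM in Ts1Cje libraries. Dtx3l had 76.9, 88.8 and 55.9 CPM in wild-type and 93.1, 67.1 and 57.6 CPM in Ts1Cje libraries. The genotypes overlapped in both genes, and for Parp9 the highest library was wild-type and the lowest Ts1Cje. Their log2 fold changes were -0.14 ± 0.18 and -0.02 ± 0.24 (SE; edgeR adjusted p = 0.894 and 0.986). The 2 genes overlap by 682 bases on opposite strands, and Parp9 also overlaps the antisense gene Gm15564, so without the strand setting some reads cannot be assigned to either.

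Parp14, an ADP-ribosyltransferase of macrophage signalling, was the steadiest member. It had 89.3, 103 and 89.7 CPM in wild-type and 111, 88.7 and 89.1 CPM in Ts1Cje libraries. The log2 fold change was 0.04 ± 0.15 (SE; edgeR adjusted p = 0.968), with a 95% interval of -0.30 to 0.38, which excludes 0.61. Rtp4, a chaperone of receptors that also restrains some viruses, had 205, 243 and 174 CPM in wild-type and 276, 199 and 211 CPM in Ts1Cje libraries. Its highest library was Ts1Cje replicate 1 and its lowest wild-type replicate 3. For Rtp4 the log2 fold change was 0.14 ± 0.19 (SE; edgeR adjusted p = 0.892), with an interval of -0.30 to 0.58. The signs of Parp14, Dtx3l and Rtp4 turned when single libraries were left out, within values of -0.24 to 0.26.

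Among the remaining members, Cxcl10, a chemokine that draws T cells, had the widest spread. It had 0.890, 11.6 and 2.03 CPM in wild-type, from 22, 309 and 54 counts, and 5.86, 5.25 and 1.6 CPM in Ts1Cje libraries, from 198, 141 and 47 counts. Wild-type replicate 2 was 13 times wild-type replicate 1, and the Ts1Cje libraries lay between. Its log2 fold change was -0.19 ± 0.91 (SE; edgeR adjusted p = 0.974) with a 95% interval of -2.31 to 1.93, and 0.39 by limma-voom.

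Ifi27, a mitochondrial and nuclear envelope protein, had 60.6, 30.95 and 18.2 CPM in wild-type and 22.6, 14.2 and 35.9 CPM in Ts1Cje libraries. It did not follow the common order: wild-type replicate 1 and Ts1Cje replicate 3 were the highest of their groups. Its log2 fold change was the lowest of the 34, at -0.59 ± 0.48 (SE; edgeR adjusted p = 0.831). It was -0.03 without wild-type replicate 1 and -1.0 without Ts1Cje replicate 3. Ifi35, which is released as a danger signal, had 34.96, 43.9 and 28.0 CPM in wild-type and 44.9, 39.3 and 41.0 CPM in Ts1Cje libraries. Only wild-type replicate 2 reached into the Ts1Cje range of Ifi35, whose log2 fold change was 0.23 ± 0.19 (SE; edgeR adjusted p = 0.835). Xaf1, a partner of apoptosis inhibitors, and Trim30a, a ubiquitin ligase that restrains inflammatory signalling, had 0.12 ± 0.31 and -0.08 ± 0.24. Ifi44 was the lowest member, at 0.940 TPM over the 6 libraries.

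In TPM, 13 members averaged above 100 over the 6 libraries, and 4 averaged below 10. After Bst2 (919) came Ifit3 (463.5), Ifit2 (362.5), Rtp4 (306), Ifitm3 (262) and Rsad2 (249). At the lower end lay Mx2 (6.58), Cxcl10 (6.09), Zbp1 (1.93) and Ifi44 (0.940). The order of Rsad2 and Ifitm3 was not fixed over libraries: in wild-type replicate 3 Rsad2 had 161 TPM and Ifitm3 103, and in Ts1Cje replicate 1 they had 253 and 418.

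Interferon genes themselves were at or near 0. Of 21 listed interferon genes, 2 had any read: Ifnb1 with 4 counts, in wild-type replicate 2, and Ifnk with 2 counts, in Ts1Cje replicate 3. For the others a count of 0 allows up to 0.0888 to 0.121 CPM per library (3 counts; counting error only).

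Of the 4 receptor chains in the segment, 3 had groups that did not overlap, with Ts1Cje above (6.38% of all genes). The median log2 fold change over the 57 tested genes of the segment was 0.61. Ifnar1 had 134, 129 and 152 CPM in wild-type and 239, 187 and 188 CPM in Ts1Cje libraries. Ifngr2 had 214, 186 and 235 CPM in wild-type and 335, 354 and 320.1 CPM in Ts1Cje libraries. Il10rb had 353, 362 and 351 CPM in wild-type and 499.5, 449.9 and 603 CPM in Ts1Cje libraries. In these 3 genes every Ts1Cje library was above every wild-type library. As log2 fold changes these were 0.57 ± 0.15, 0.67 ± 0.14 and 0.54 ± 0.16 (SE), with unadjusted p of 0.00676, 0.00181 and 0.00893 and an adjusted p of 0.792 for each by edgeR.

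Ifnar2, the other chain of the type I receptor, had 133, 114 and 77.5 CPM in wild-type and 127, 124 and 170 CPM in Ts1Cje libraries. Wild-type replicate 1 overlapped the Ts1Cje range, and the log2 fold change was 0.38 ± 0.23 (SE; edgeR adjusted p = 0.805). Ifngr1, on chromosome 10, had 394, 285 and 195 CPM in wild-type and 164, 180.2 and 206 CPM in Ts1Cje libraries. Its log2 fold change was -0.67 ± 0.25, opposite in sign to its partner Ifngr2 (SE; unadjusted p = 0.0311, edgeR adjusted p = 0.792). Over the 5 chains tested the median was 0.54, and over the 34 stimulated genes -0.03; the difference between these lists was not tested.

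The order of the libraries was compared between receptors and stimulated genes. Wild-type replicate 2, the highest library for 18 members, had the lowest Ifnar1 and the lowest Ifngr2 of all 6 libraries. Ts1Cje replicate 1, the highest for 12 members, had the highest Ifnar1. Wild-type replicate 3, the lowest for 20 members, had the lowest Ifnar2 and Il10rb of all 6 libraries. It also had the highest Ifnar1 (152 CPM) and Ifngr2 (235 CPM) of the wild-type libraries. Jak1 had 376, 269.8 and 294 CPM in wild-type and 263, 289 and 273 CPM in Ts1Cje libraries, and Tyk2 had 118, 89.5 and 82.6 against 93.3, 88.7 and 91.6 CPM. Both kinases were highest in wild-type replicate 1 and overlapped between genotypes, with log2 fold changes of -0.19 ± 0.16 and -0.08 ± 0.16 (SE; edgeR adjusted p = 0.837 and 0.928). Of 15 tested kinases, STATs, IRFs and their inhibitors, 4 had a positive and 11 a negative log2 fold change (median -0.19), and none passed the threshold. The highest wild-type library was replicate 1 for 8 of these 15 genes, replicate 2 for 3 and replicate 3 for 4. The feedback inhibitors Socs1 and Socs3, chosen after their values were seen, were highest in wild-type replicate 2, at 2.43 and 9.91 CPM. Their other 5 libraries lay between 0.225 and 0.670 CPM for Socs1 and between 0.886 and 5.04 CPM for Socs3. Socs1 had only 6 to 65 counts per library.

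**Figure D4:**
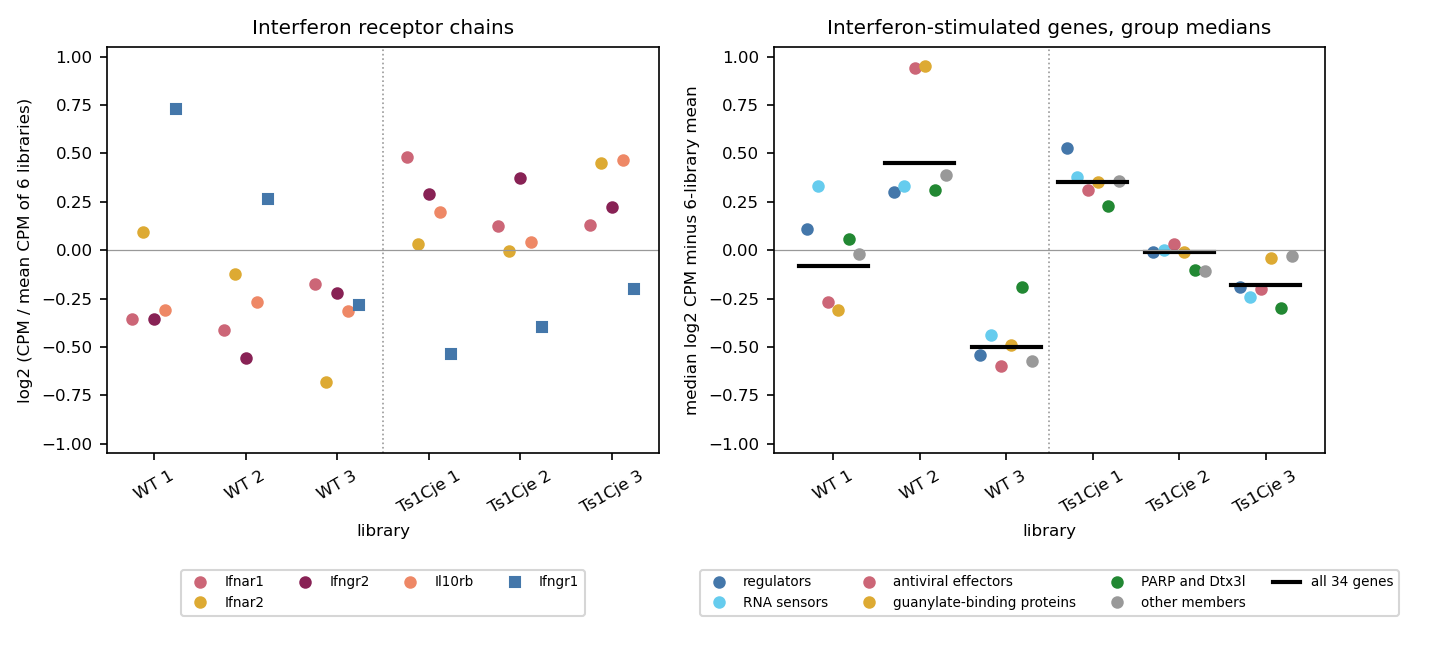
Left, log2 of CPM over the gene's mean for the 5 interferon receptor chains tested in each library, and right, the median log2 CPM relative to the 6-library mean for each role group (points) and for all 34 genes (bars). Ifnar1, Ifngr2 and Il10rb separate the genotypes, while the stimulated genes are highest in wild-type replicate 2 (median 0.45) and lowest in wild-type replicate 3 (-0.50).

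Another 68 interferon-stimulated genes were listed for comparison, of which 60 could be tested. Of these, 26 were positive and 34 negative, the median log2 fold change was -0.04, and none passed the threshold. They shared the order of the libraries: wild-type replicate 2 was the highest wild-type library for 40 of 60, and wild-type replicate 3 the lowest for 48 of 60. In the OAS family with RNase L, which the 34 members leave out, 8 of 9 were positive and the median was 0.68. For those 9 genes wild-type replicate 2 was the highest of its group in 2 and wild-type replicate 1 in 7, while wild-type replicate 3 was the lowest of its group in 9 and Ts1Cje replicate 1 the highest of its group in 6. Whether the OAS family differs from the 34 members was not tested. Of 14 tested genes of nucleic acid sensing outside the members, such as adaptors and Toll-like receptors, 7 had a positive and 7 a negative value (median -0.01), and none passed the threshold.

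Markers of other cell types were examined beside the order of the libraries. The erythroid and megakaryocyte list, of which 7 of 8 genes were detected, summed to 34.2, 188 and 90.3 CPM in wild-type and 147, 44.5 and 76.3 CPM in Ts1Cje libraries. The sum was thus highest in wild-type replicate 2 and Ts1Cje replicate 1, the same 2 libraries in which most members were highest. Nearly all of that sum was Pf4, a platelet chemokine that primitive macrophages are also known to express, at 34.03 to 185 CPM in wild-type and 43.6 to 144 CPM in Ts1Cje libraries. Of the 3 genes of this list with enough reads to be tested, 2 were highest among wild-type libraries in replicate 3 and 1 in replicate 2. All 3 were highest among Ts1Cje libraries in replicate 1. The part of this list in the order of the members was not tested. Epithelial markers summed to 20.2, 0 and 0.150 CPM in wild-type and 6.39, 7.37 and 4.53 CPM in Ts1Cje libraries. Mesenchymal markers summed to 42.6, 19 and 19.3 CPM in wild-type and 12.7, 80.5 and 17.2 CPM in Ts1Cje libraries, and endothelial markers to 13.5, 23.3 and 45.7 CPM and to 56, 40.7 and 29.3 CPM. None of these 3 lists was highest in wild-type replicate 2, and neutrophil markers stayed under 1 CPM in every library.

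Of 8 listed markers of plasmacytoid dendritic cells, which are strong producers of type I interferon, 5 were detected, and Siglech, Ly6d and Klk1 were at 0 in all 6 libraries. Cox6a2 had 1.86, 4 and 0.413 CPM in wild-type and 0.473, 0.559 and 0.341 CPM in Ts1Cje libraries (unadjusted p = 0.0312, edgeR adjusted p = 0.792). Pacsin1 had 0.374 CPM in wild-type replicate 2, 0.149 CPM in Ts1Cje replicate 2 and 0 in the other libraries. Both were highest in wild-type replicate 2, and at 0.374 CPM Pacsin1 rests on few reads. The 2 genes fell outside the naming rule and were chosen after their values were seen. Tcf4 and Ccr9 were also detected and are not given by library. The part of these markers in the order of the members was not tested. Of the 3 markers with enough reads to be tested, 2 were highest among wild-type libraries in replicate 1 and 1 in replicate 2. The summed list, which includes Bst2 itself, was 414, 327 and 236 CPM in wild-type and 410, 380 and 400 CPM in Ts1Cje libraries.

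The balance of signs depended on which libraries of either genotype were in the comparison. Wild-type replicate 2 was the highest wild-type library for 29 of 34 members and for 27.2% of all genes. Leaving it out raises those members by construction, so the shares over all genes are not a like background. Leaving out wild-type replicate 3 or Ts1Cje replicate 1 likewise lowers most members. The counts below restate the order of the libraries and are no separate test of genotype. Without wild-type replicate 2, 28 of 34 members were positive (49.1% of all genes) with a median of 0.40. Then 11 members had Ts1Cje libraries all above wild-type libraries (9.3% of all genes): Usp18, Isg15, Dhx58, Ifit3, Ifitm3, Rsad2, Mx2, Bst2, Gbp2, Gbp3 and Ifi35. Of these Usp18, Isg15, Ifitm3 and Rsad2 had an unadjusted p under 0.05 (1.98% of all genes higher), and the smallest adjusted p by edgeR was 0.975. Without wild-type replicate 3, 8 of 34 were positive (48.8% of all genes) and the median was -0.21. In that comparison 1 member, Bst2, lay above in all Ts1Cje libraries (18.2% of all genes), and 4 lay below (17.5% of all genes), namely Irf9, Ifih1, Trim25 and Mx1, with a smallest adjusted p of 0.277. Trim25 had an unadjusted p of 0.0354 there (7.03% of all genes lower at p under 0.05). Without wild-type replicate 1, 14 members were positive (49.7% of all genes) and the median was -0.02. Leaving out Ts1Cje replicates 1, 2 or 3 gave 5, 17 or 22 positive members (48.1%, 49.1% and 48.2% of all genes) and medians of -0.21, -0.01 or 0.10.

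**Figure D5:**
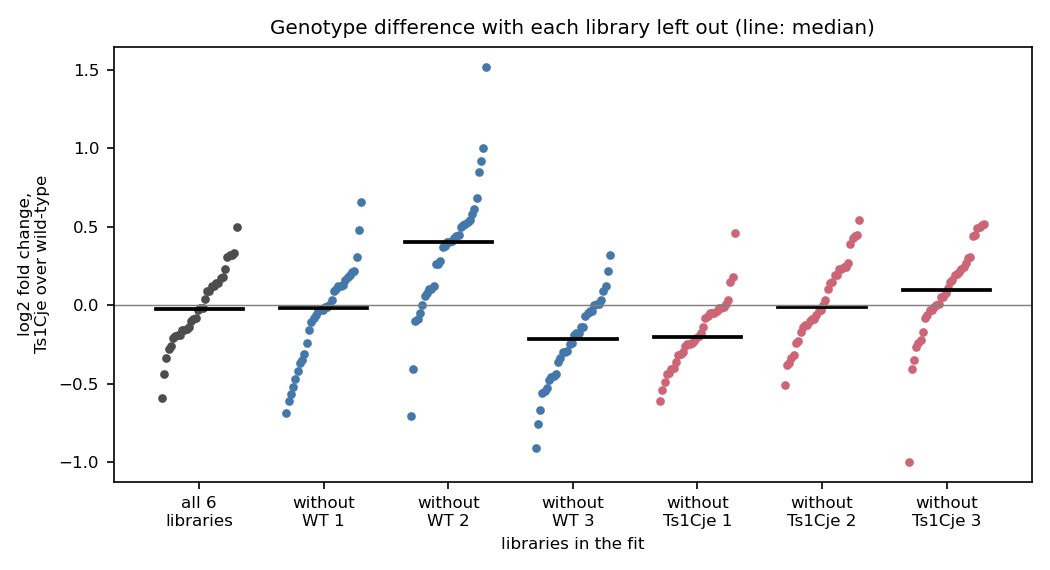
Log2 fold change of the 34 genes (points, Ts1Cje relative to wild-type) with all 6 libraries and with each library left out in turn, with a line at the median. The median moves from -0.03 to 0.40 without wild-type replicate 2 and to -0.21 without wild-type replicate 3 or without Ts1Cje replicate 1.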

How the data were processed

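RNA was sequenced from 6 libraries, made with a SMART-seq HT Plus kit from 450 ng of total RNA each, per the labels' protocols. Tools named in the submitters' processing notes are FastQC 0.11.7, Trimmomatic 0.38, HISAT2 2.1.0 and featureCounts 1.6.3, with mm10. Strand setting and multi-mapping were not given in the sources used here. Raw counts per gene and TPM per gene were deposited by the authors. In 9151 of 9151 genes checked, within a tolerance of 0.01, the deposited TPM equalled counts over a gene length, rescaled per library.

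Counts were tested with edgeR 4.0.16 in R 4.3.3 (filterByExpr with a count minimum of 10 and total minimum of 15, TMM factors, genotype as the only term, quasi-likelihood test, Benjamini-Hochberg adjustment over 13821 genes, threshold 0.05). A standard error is the size of the log2 fold change over the root of F. Log2 CPM use a prior count of 2. The scripts were also tested on simulated data. Alternatives used RLE, upper-quartile and TMM factors without chromosome 16, no or a stricter filter, DESeq2 1.42.0, limma 3.58.1 (voom, and log2 TPM), a replicate block, and each library left out.

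The members, lists and rules were chosen with earlier results of these data known. Values in every library are given for members with an unadjusted p under 0.05, the 6 smallest p, the 6 highest TPM, the 6 widest ranges within a genotype among members with a mean log2 CPM above 1, the chromosome 16 members, and receptor and kinase genes. A result that the rule names is not reported here. Others were chosen after their values were seen, as stated. Reads copied by PCR are not independent molecules, so count limits cover counting error only.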

Additional observations from a re-analysis of the deposited data

How the results depend on the processing

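None of the 34 genes passed the threshold under any alternative run, with a smallest adjusted p of 0.277 to 0.99. Over all genes, 1 passed with edgeR, 3 with no filter, 44 with DESeq2, and 1 to 6 with a library left out (6 without wild-type replicate 3). With a library left out, positive members numbered 5 to 28 and the median of the members ran from -0.21 to 0.40. Members with groups that do not overlap numbered 1 to 11. The 11 were found without wild-type replicate 2, where 9.3% of all genes had every Ts1Cje library above. Leaving out that library raises most members by construction, so this share is not a like background. The difference between wild-type replicates 2 and 3, a median of 0.95 in log2 CPM, was 0.93 to 0.98 under other scalings, which were chosen after seeing the data.

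Of 27 genes with values in every library, 13 kept their sign under all alternatives. With a library left out, the log2 fold change ran from -0.67 to 0.06 for Ifit2, -0.48 to 0.40 for Ifit3, -0.47 to 0.50 for Ifit1, -0.53 to 0.45 for Rsad2, -0.57 to 0.43 for Cmpk2 and -0.04 to 1.0 for Ifitm3. It ran from -0.76 to 0.37 for Mx1, -0.44 to 0.51 for Mx2, -0.31 to 0.85 for Gbp2, -0.69 to 1.52 for Cxcl10, -0.24 to 0.12 for Dtx3l, -0.08 to 0.10 for Parp14, -0.01 to 0.26 for Rtp4 and -0.18 to 0.07 for Tyk2. By limma-voom Cxcl10, Mx1, Ifit1 and Mx2 turned to 0.39, 0.14, 0.11 and 0.03. On log2(TPM + 1), with or without a TPM minimum of 1, they were 0.24, 0.09, 0.10 and 0.01, and with a pseudocount of 0.1 they were 0.38, 0.12, 0.10 and 0.03. The cause was not tested.

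Deviations of same-numbered libraries correlated at -0.18, -0.05 and -0.06, and those of differently numbered libraries at -0.11 to 0.17. With 3 libraries per genotype these values cannot decide whether lots pair. What a lot number stands for is not given in the labels. With the replicate number as a block 0 genes passed (634 at an unadjusted p under 0.05), 19 members were positive, and Cxcl10, Mx1, Ifit1 and Mx2 were 0.29, 0.11, 0.09 and 0.04. The intervals of Cxcl10, Zbp1 and Ifi44 were the widest of the 34. Zbp1 and Ifi44 were also the members with the lowest mean log2 CPM, and Cxcl10 the one with the widest spread between libraries.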
